A study of Homo sapiens with 6 samples.

Results

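The genes described here are those of HLA class I and of peptide loading onto it: the heavy chain genes HLA-B, HLA-C, HLA-E and HLA-F, the light chain gene B2M, the peptide transporter genes TAP1 and TAP2, the loading chaperone gene TAPBP and the class I transactivator gene NLRC5. Every probe set whose gene symbol in the probe-to-gene table was, or included, one of these 9 genes was taken, which gave 44 of 49293 probe sets that were no controls. One of the 44 was shared by HLA-B and HLA-C. RNA was taken from cells that the labels name NCI-H929, an established line from human multiple myeloma, and hybridised to 6 Affymetrix arrays, 1 per sample. In 3 samples, called PRMT5_down, the cells carried a lentivirus directed against PRMT5, which puts symmetric dimethyl marks on arginines, and in 3 control samples a control lentivirus. The titles call both constructs sponges, whereas the treatment protocol describes a short hairpin RNA in the pLKO.1 vector. The protocol has transduced cells selected with puromycin, the design text also names a sort, and neither names a cloning step. The protocol calls the comparison cells normal NCI-H929, and cells of both groups were harvested at one time. Both groups carry replicate numbers 1 to 3, and the labels do not say what samples of the same number share, nor that samples came from separate cultures. The p-values therefore cover no more than the spread of the 6 arrays, part or all of which may be technical.

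Class I molecules show peptides from inside the cell to CD8 T cells. A heavy chain folds with beta-2 microglobulin, the product of B2M, in the endoplasmic reticulum, where the TAP1 and TAP2 transporter brings in peptides cut by the proteasome and tapasin, the product of TAPBP, holds the empty heavy chain at the transporter. NLRC5 and interferon-induced factors act on the promoters of most of these genes, and HLA-E, whose groove mainly holds leader peptides of other class I chains, is the ligand of the NKG2A receptor of natural killer cells.

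Values are log2 signals, so a difference of 1 is a doubling. Since probe sets bind with unequal strength, each level was set only against background, taken on each array as the 95th percentile of 333 olfactory receptor genes, 4.89 to 5.01. PRMT5, the targeted gene, had signals of 9.93, 10.35 and 10.30 in the controls numbered 1, 2 and 3 and of 8.63, 9.65 and 9.37 in the PRMT5_down samples of those numbers, a log2 difference of -0.98 (SE 0.28). The groups did not overlap for PRMT5 (p = 0.1 by a two-sided exact permutation test, with no smaller value possible for 3 against 3). Of 15 genes listed as plasma cell markers 7 were above background on all 6 arrays. The brightest were XBP1, CCND2, NSD2 and FGFR3, whereas SDC1, PRDM1 and FKBP11 had mean signals of only 5.23, 5.77 and 5.59. Another 7 were above it on none, among them IRF4, CD38, TNFRSF17, MZB1 and POU2AF1, with IRF4 at a mean of 3.20 and CD38 at 2.61. All 7 measured erythroid markers were above it on all 6. The brightest were TFRC, KLF1, GATA1 and ALAS2, with mean signals of 11.47, 10.30, 10.19 and 10.18. The name NCI-H929 comes from the labels, and the identity of the cells was not tested. The summed log2 signal of the erythroid markers was 60.81 to 62.71 in controls and 63.84 to 66.44 in PRMT5_down, and that of the plasma cell markers 82.64 to 84.22 and 82.06 to 82.84. The array medians lay between 5.29 and 5.32, and the number of arrays limits the precision of every difference. In bulk RNA, fewer cells of a type and less RNA per cell cannot be told apart.

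RefSeq promoters (GRCh38.p14) were matched for 7 of the 9 genes. HLA-E and NLRC5 were not matched. The 250 bases before the start site are given for HLA-B and HLA-C, whose signal lay near background, for B2M, whose signal lay far above it, and for TAP1 and TAPBP, which differed between replicate numbers. They lie at chr6:31357180-31357429 on the minus strand, chr6:31272093-31272342 on the minus strand, chr15:44711267-44711516 on the plus strand, chr6:32853705-32853954 on the minus strand and chr6:33314079-33314328 on the minus strand. Capitals mark, on either strand, CCAAT (the core bound by NF-Y, as in the Y box of class I promoters), TGACG (the core of a cyclic AMP response element, as in the X box), an interferon response element core (a pair of GAAA with any 2 bases between them) and an NF-kB-like element (GGGA and CC with any 4 bases between them). The last can match both strands of 1 site, and matches of the interferon response element can overlap each other.
HLA-B: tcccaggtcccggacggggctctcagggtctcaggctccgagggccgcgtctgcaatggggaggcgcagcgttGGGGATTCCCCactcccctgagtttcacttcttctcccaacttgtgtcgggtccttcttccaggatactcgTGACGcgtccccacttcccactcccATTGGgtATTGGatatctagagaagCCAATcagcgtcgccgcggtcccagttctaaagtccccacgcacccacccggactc
HLA-C: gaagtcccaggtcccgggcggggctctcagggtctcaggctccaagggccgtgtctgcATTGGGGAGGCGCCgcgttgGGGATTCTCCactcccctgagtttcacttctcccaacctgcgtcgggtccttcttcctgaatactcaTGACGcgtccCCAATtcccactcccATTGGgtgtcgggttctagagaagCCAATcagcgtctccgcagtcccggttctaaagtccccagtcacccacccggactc
B2M: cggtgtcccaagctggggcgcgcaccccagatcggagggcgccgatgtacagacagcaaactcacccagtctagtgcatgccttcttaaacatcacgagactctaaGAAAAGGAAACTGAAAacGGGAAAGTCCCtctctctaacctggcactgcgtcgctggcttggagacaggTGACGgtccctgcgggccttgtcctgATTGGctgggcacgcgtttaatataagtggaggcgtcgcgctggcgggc
TAP1: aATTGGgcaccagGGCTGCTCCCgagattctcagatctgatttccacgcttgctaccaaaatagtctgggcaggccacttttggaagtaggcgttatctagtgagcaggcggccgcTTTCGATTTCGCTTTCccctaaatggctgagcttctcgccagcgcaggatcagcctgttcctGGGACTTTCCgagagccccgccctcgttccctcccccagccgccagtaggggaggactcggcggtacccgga
TAPBP: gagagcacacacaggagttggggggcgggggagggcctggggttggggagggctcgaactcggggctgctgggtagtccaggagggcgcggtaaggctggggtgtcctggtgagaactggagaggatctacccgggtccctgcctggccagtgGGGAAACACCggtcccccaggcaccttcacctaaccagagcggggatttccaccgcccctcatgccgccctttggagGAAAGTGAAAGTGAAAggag
CCAAT was found before 5 of the 7 matched genes and in 32.0% of all 35116 promoter windows of the same length. TGACG was found before 4 of the 7 and in 21.2% of all windows. The interferon response element core was found before 5 of the 7, HLA-F, B2M, TAP1, TAP2 and TAPBP, and in 3.02% of all windows. The NF-kB-like element was found before 5 of the 7 and in 22.6% of all windows. HLA-B and HLA-C held the CCAAT motif, the TGACG motif and the NF-kB-like element, as did B2M, which also held 2 overlapping interferon response element matches, at positions -144 to -129 from its start site. These matches describe the letters only. Sequences that depart from a pattern were not marked, so HLA-B and HLA-C, without an exact match of the interferon response element core, may still hold such an element.

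The classical heavy chain genes HLA-B and HLA-C, which present most peptides to CD8 T cells, had signals at or near background, whereas HLA-E and B2M were well above it. The brightest HLA-B probe set, 11755933_x_at, read 4.85, 4.88 and 4.98 in the controls numbered 1, 2 and 3 and 4.77, 4.94 and 4.90 in the PRMT5_down samples, in the same order as every set of values below. It passed background on 1 of the 6 arrays, and the other two HLA-B probe sets were no brighter. The brightest HLA-C probe set, 11762940_x_at, read 5.15, 5.21 and 5.41 in controls and 4.90, 5.26 and 5.24 in PRMT5_down. Every array but PRMT5_down replicate 1 thus passed background by a small margin, and the other two HLA-C probe sets, from 3.37 to 4.82, passed on none. The probe set shared by HLA-B and HLA-C, 11759581_x_at, read 2.74 to 2.98, also under background. With the 90th percentile as background, the brightest probe sets of both genes passed on all 6 arrays, and with the 99th, 6.84 to 7.03, on none. HLA-B and HLA-C are among the most polymorphic human genes, and whether the alleles of these cells match the probes was not tested.

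HLA-F, a class I gene with low surface display, was under background on every array by all 10 of its probe sets, with signals from 2.25 to 4.54. NLRC5, the transactivator, was likewise under it by both probe sets. The NLRC5 probe set 11755758_s_at read 3.97, 3.88 and 4.14 in controls and 4.03, 3.87 and 3.97 in PRMT5_down, and 11729523_a_at stayed between 2.98 and 3.03. HLA-F and NLRC5 were under background on all 6 arrays at the 90th, 95th and 99th percentile for their brightest probe sets.

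HLA-E was above background on all 6 arrays by all 6 of its probe sets. The brightest, 11751618_x_at, read 8.85, 9.35 and 9.65 in controls and 8.67, 9.27 and 9.46 in PRMT5_down, so that the groups overlapped and the lowest value of each was that of replicate 1. Probe sets ending in _x_at can bind other near-identical sequences and those ending in _s_at several transcripts, so signal from other class I chains is not separated from that of HLA-E. B2M was above background by all 8 probe sets, with signals from 10.60 to 12.13. Its brightest, 11758300_x_at, read 11.99, 12.12 and 11.79 in controls and 11.96, 12.13 and 12.06 in PRMT5_down. A pair of B2M probe sets, 11758148_s_at and 11758192_s_at, held identical values and bring 1 measurement.

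The loading genes were also above background. The brightest TAP1 probe set, 11757351_a_at, read 5.80, 6.89 and 5.94 in controls and 5.90, 6.94 and 6.08 in PRMT5_down, with replicate 2 the highest in each group. With the 99th percentile as background, 6.84 to 7.03, it passed only on control replicate 2. The other TAP1 probe set, 11730729_a_at, lay closer to background, from 5.13 to 5.89. The brightest TAP2 probe set, 11723059_a_at, read 7.75, 7.39 and 6.97 in controls and 7.74, 7.49 and 7.57 in PRMT5_down. The brightest TAPBP probe set, 11757321_a_at, read 9.60, 10.31 and 10.37 in controls and 9.37, 10.33 and 10.43 in PRMT5_down, with replicate 1 the lowest in each group. Both TAP1, all 4 TAP2 and 4 of 5 TAPBP probe sets were above background on all 6 arrays. The fifth TAPBP probe set, 11735502_a_at, lay around it, from 4.46 to 5.36. In all, 24 of the 44 probe sets were above background on all 6 arrays, 16 on none and 4 on some, and 54.5% above on all 6 compares with 50.6% of all probe sets.

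**Figure D1:**
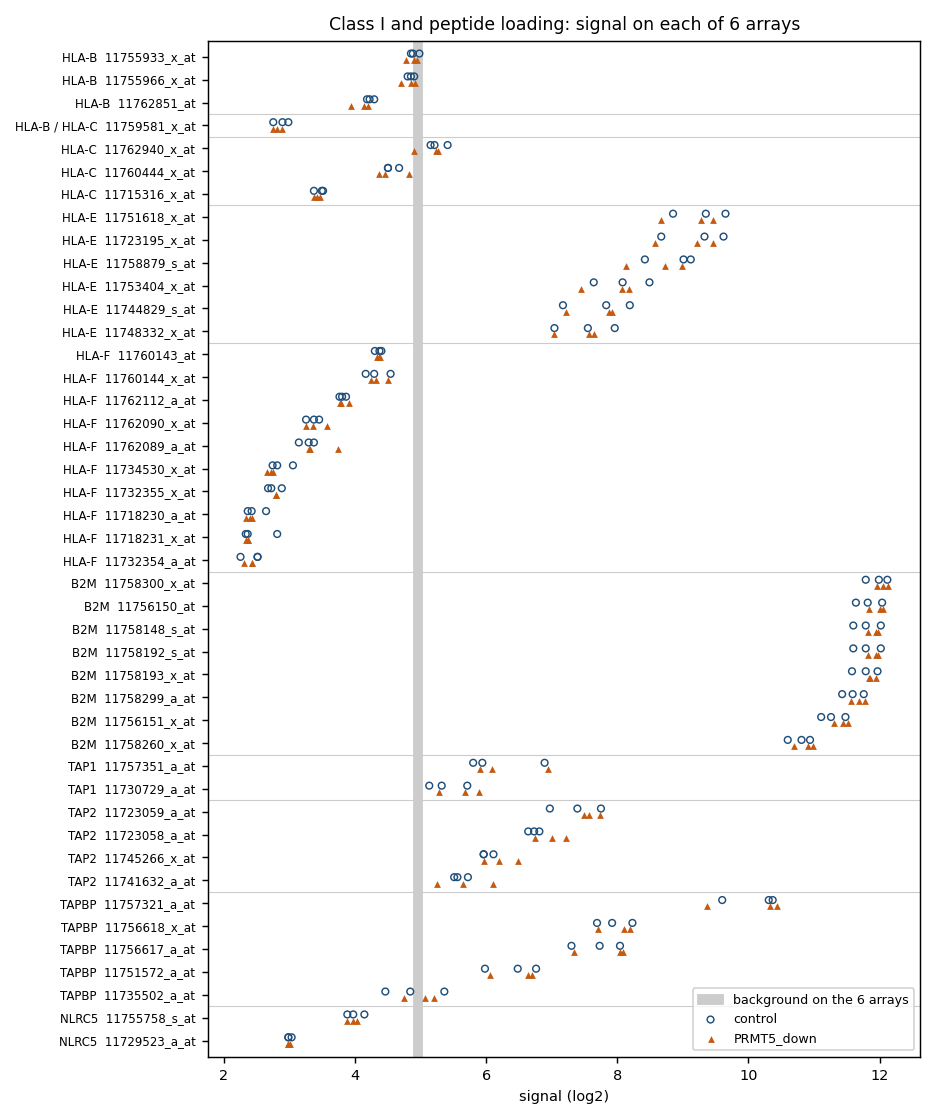
Log2 signal (x axis) of the 44 probe sets (y axis, by gene) on each of 6 arrays, with 3 control arrays as circles, 3 PRMT5_down arrays as triangles and the background of the 6 arrays, 4.89 to 5.01, as a grey band. The HLA-F and NLRC5 points lie left of the band and the HLA-E and B2M points right of it.

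No member was called between PRMT5_down and control, but the targeted gene PRMT5 was not called either (limma unadjusted p = 0.012). The absence of calls thus does not show that the members were unchanged. Limma called 0 of the 44 probe sets at an adjusted p under 0.05 and had 0 at an unadjusted p under 0.05, where 0% of all 49293 probe sets were called and 0.945% had such an unadjusted p. Of the 44, 23 were higher, 20 lower and 1 at no difference, with a median of 0.02 against -0.01 over all probe sets. The groups overlapped for every member, whereas 3.93% of all probe sets had groups that did not overlap. The lowest two-sided exact permutation p of any member was 0.2, where 0.1 is the smallest possible. For 9 of 44 members, or 20.5%, the sign was the same in the 3 replicate numbers, against 26.8% of all probe sets. With the replicate number as a block, limma still called 0 of the 44, and of all probe sets 0%, while 8.56% of all and 1 of the 44 reached an unadjusted p under 0.05.

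Among the heavy chains, the brightest HLA-E probe set averaged 9.28 ± 0.40 (SD, n = 3) in controls and 9.13 ± 0.41 (SD, n = 3) in PRMT5_down, which differ by -0.15 (SE 0.28, 95% interval -0.83 to 0.53). All 6 HLA-E probe sets had a difference under 0, from -0.23 to -0.06. The one with the unadjusted p under 0.05 in the blocked fit was HLA-E 11758879_s_at, at -0.23 with an SE of 0.28 as planned and of 0.08 with the block. Its 95% interval with the block, -0.43 to -0.04, left out 0, but it did not pass there (limma adjusted p = 0.54). Its within-number differences were -0.29, -0.13 and -0.28. Probe sets of HLA-B ranged from -0.14 to -0.03, those of HLA-C from -0.12 to -0.01 and those of HLA-F from -0.17 to 0.18, all between signals near or under background.

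B2M and TAP2 had small positive differences that did not pass the test and were largest within replicate number 3 on each of their probe sets. By its brightest probe set B2M averaged 11.97 ± 0.17 (SD, n = 3) in controls and 12.05 ± 0.09 (SD, n = 3) in PRMT5_down, a difference of 0.08 (SE 0.11, 95% interval -0.19 to 0.36). All 8 B2M probe sets had a difference over 0, from 0.08 to 0.14. Within replicate numbers 1, 2 and 3 the brightest stood at -0.03, 0.01 and 0.27, and over the 8 probe sets number 3 gave 0.26 to 0.37. Without control replicate 3 the B2M difference was -0.005.

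TAP2, the partner of TAP1 in the transporter, averaged 7.37 ± 0.39 and 7.60 ± 0.13 (SD, n = 3 each), a difference of 0.23 (SE 0.20, 95% interval -0.27 to 0.73). Its within-number differences were -0.01, 0.10 and 0.60, and number 3 gave 0.53 to 0.60 over its 4 probe sets. Without control replicate 3 the TAP2 difference was 0.03. TAP1 differed by 0.10 (SE 0.39, 95% interval -0.85 to 1.04) by its brightest probe set and by 0.23 (SE 0.21) by 11730729_a_at. Within number 3 the TAP1 probe sets differed by 0.14 and 0.54. Over the 24 members above background on all 6 arrays, 13 were higher by 0.25 or more within number 3, or 54.2%, against 20.1% of all probe sets above background on all 6. Lower by 0.25 or more within number 3 were 4 of the 24, or 16.7%, against 13.9%. Higher by that much within number 1 were 0 of the 24, against 14.4%, and within number 2 there were 3, or 12.5%, against 3.25%. The 13 were all 8 probe sets of B2M, all 4 of TAP2 and TAP1 11730729_a_at, and the 4 lower ones were all of HLA-E. Probe sets of 1 gene are not independent of each other, and the 24 include 8 of B2M and 6 of HLA-E. These counts thus stand for few genes, and the shares of all probe sets beside them are no test. The limit of 0.25 was not part of the plan. Each number holds 1 array per group, so these within-number values have no test.

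TAPBP differed by -0.05 (SE 0.35, 95% interval -0.89 to 0.79) by its brightest probe set and by 0.05 to 0.13 by the other four. NLRC5 differed by -0.04 (SE 0.10) and -0.01 (SE 0.07), under background in both groups. Over the 24 members above background, the standard errors were 0.11 to 0.39 as planned and 0.08 to 0.17 with the replicate block, and the 95% intervals reached from -0.92 to 1.04 as planned and from -0.43 to 0.55 with the block.

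**Figure D2:**
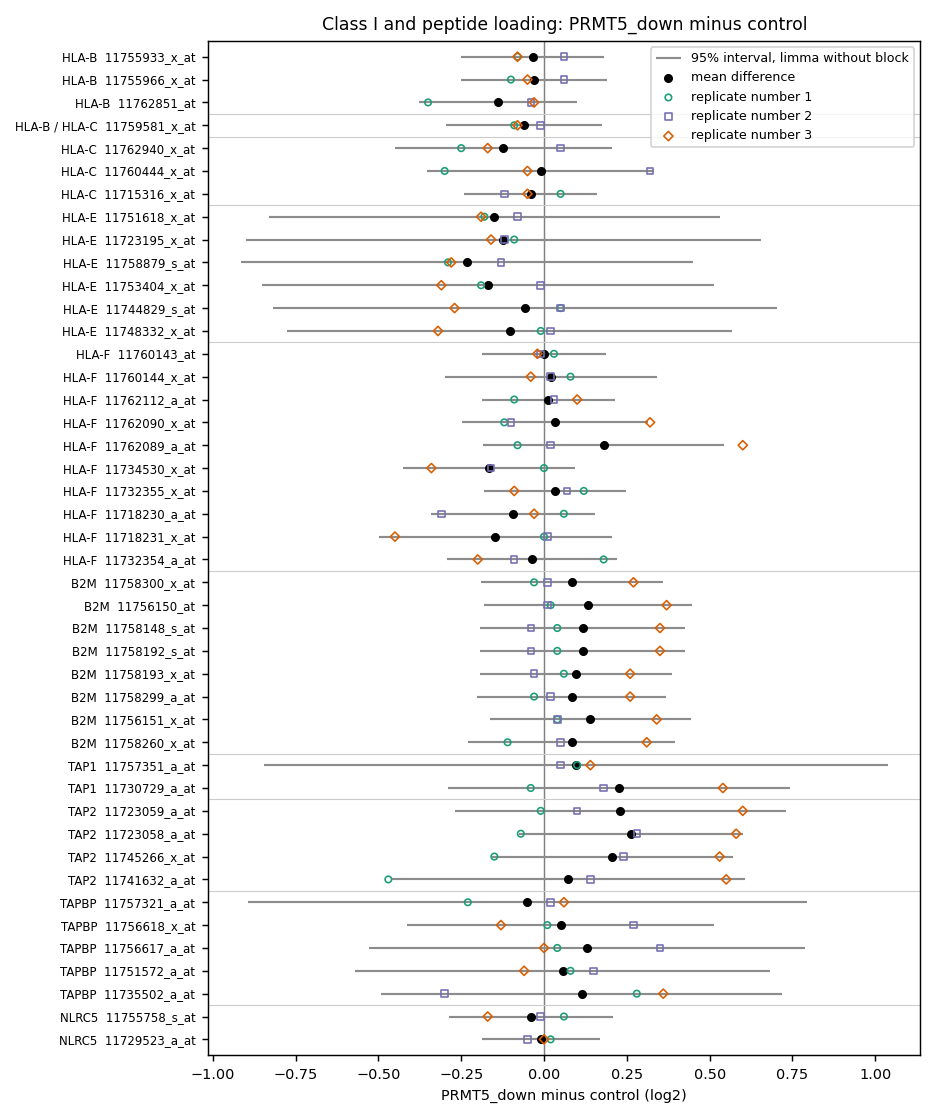
PRMT5_down minus control in log2 units (x axis) for the 44 probe sets (y axis, by gene). Filled dots are mean differences over 3 arrays per group, grey lines the 95% intervals of limma without a block, and open symbols the difference within each replicate number. Every interval spans 0, and the 8 B2M and 4 TAP2 diamonds of number 3 lie at 0.26 or higher.

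Many more probe sets were called between replicate numbers than between the groups. In limma with group and number as terms, 17.2% of all probe sets were called between numbers 2 and 1, 27.8% between 3 and 1 and 17.8% between 3 and 2. Of the 44 members, 12, or 27.3%, were called between 2 and 1, 11, or 25.0%, between 3 and 1 and 1, or 2.27%, between 3 and 2. All 12 and all 11 were higher than in number 1, a direction called for 8.21% and 12.7% of all probe sets, with 8.97% and 15.1% called lower. The 1 was lower in number 3 than in number 2, a direction called for 10.0%, with 7.76% called higher. Of the 24 members above background on all 6 arrays, 45.8% were called between 2 and 1, 41.7% between 3 and 1 and 4.17% between 3 and 2. Of all such probe sets the shares were 27.7%, 44.8% and 28.4%. By the brightest probe set of each gene, 3 of 9 members were called between 2 and 1, against 17.5% of 18132 genes, 2 of 9 between 3 and 1, against 28.6%, and 1 of 9 between 3 and 2, against 18.3%. The members' shares therefore lay on both sides of the background.

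HLA-E was lower in number 1 than in numbers 2 and 3 on all 6 of its probe sets, both contrasts called, a pattern that 4.47% of all probe sets had. For 11751618_x_at, number 2 was higher than number 1 by 0.55 (SE 0.10, limma adjusted p = 0.0089), or 1.46-fold. Number 3 was higher than number 1 by 0.80 for HLA-E 11751618_x_at (limma adjusted p = 0.0015), or 1.74-fold. Over its 6 probe sets the differences were 0.53 to 0.78 for number 2 minus 1 and 0.59 to 0.92 for number 3 minus 1, and 0 of the 6 was called between 3 and 2.

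TAPBP had the same pattern, called in both contrasts on 3 of 5 probe sets. For its brightest, number 2 was higher than number 1 by 0.83 (limma adjusted p = 0.0030), or 1.78-fold, and number 3 by 0.92 (limma adjusted p = 0.0014), or 1.89-fold. Of the other two TAPBP probe sets, 11756618_x_at was called between 3 and 1 alone, at 0.47, and 11735502_a_at between 2 and 1 alone, at 0.61. B2M differed by no more than 0.25 between any pair of numbers, with none of its 8 probe sets called. No TAP2, HLA-B, HLA-C or NLRC5 probe set was called, and the closest was TAP2 11723059_a_at, at -0.47 between 3 and 1 (limma adjusted p = 0.050). The 1 HLA-F probe set called between 3 and 1, 11760144_x_at, was under background on all arrays, with a difference of 0.32.

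TAP1 had another pattern, with number 2 the highest. Its brightest probe set was higher in number 2 than in number 1 by 1.06 (SE 0.10, limma adjusted p = 0.0011), or 2.09-fold, and lower in number 3 than in number 2 by 0.91 (limma adjusted p = 0.0019), a pattern that 2.65% of all probe sets had. The other TAP1 probe set, 11730729_a_at, was higher in number 2 than in number 1 by 0.50 (limma adjusted p = 0.048) and stood at -0.40 between 3 and 2 (limma adjusted p = 0.097).

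PSMB9, a catalytic subunit of the immunoproteasome, is the neighbour of TAP1, with start sites 488 bases apart on opposite strands in RefSeq (GRCh38.p14), and both genes are known to share a bidirectional promoter. PSMB9 read 5.56, 7.53 and 5.86 in controls and 5.40, 7.66 and 6.71 in PRMT5_down. Number 2 was again the highest in both groups, by 2.12 over number 1 (SE 0.21, limma adjusted p = 0.0013), or 4.33-fold. The genes whose profile over the 6 arrays, centred on its mean, was most like that of TAP1 among 10214 compared were HSP90AA1, PSMC1, NKAP, IVNS1ABP and SPG7, with root mean square differences of 0.07, 0.09, 0.09, 0.09 and 0.10 log2 units. PSMB9 stood at 0.48 by the same measure, with rank 4281, and its standard deviation over the arrays was 0.99 against 0.52 for TAP1. The measure counts the size of the changes as well as their shape. A profile of like shape but larger changes therefore ranks low, and the rank does not show that PSMB9 and TAP1 moved apart.

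Each number holds 1 array per group, and a two-sided exact permutation of 2 arrays against 2 cannot go below p = 0.333. Without any 1 of the 6 arrays 0 members were called between 2 and 1 and between 3 and 2. Between 3 and 1, 9 of the 11 stayed called without either replicate 2 array, 6 of HLA-E and 3 of TAPBP in each case, and 0 without any other. The sizes moved less: over the left-out arrays HLA-E 11751618_x_at gave 0.50 to 0.60 for number 2 minus 1, TAP1 11757351_a_at 1.03 to 1.10 and TAPBP 11757321_a_at 0.70 to 0.97. The mean signal of the monocyte and macrophage markers was 5.60, 5.80 and 6.05 in numbers 1, 2 and 3, that of the T and NK cell markers 5.16, 5.02 and 5.65 and that of the erythroid markers 9.22, 8.91 and 9.04. Of these lists 3 of 5, 3 of 6 and 7 of 7 measured genes were above background on all 6 arrays. CD68 moved most among the first, at 6.945, 7.67 and 8.41. PRF1, at 6.03, 5.85 and 7.73, and CD3D, at 7.465, 6.725 and 8.31, moved most among the second. Means were 4.015, 3.915 and 4.49 for dendritic cell markers and 5.57, 5.49 and 5.55 for plasma cell markers. They were 5.83, 5.87 and 5.93 for B cell markers and 6.03, 5.92 and 6.11 for stromal and epithelial markers. The part of those markers, and of whatever the samples of a number share, in the differences between numbers was not tested.

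**Figure D3:**
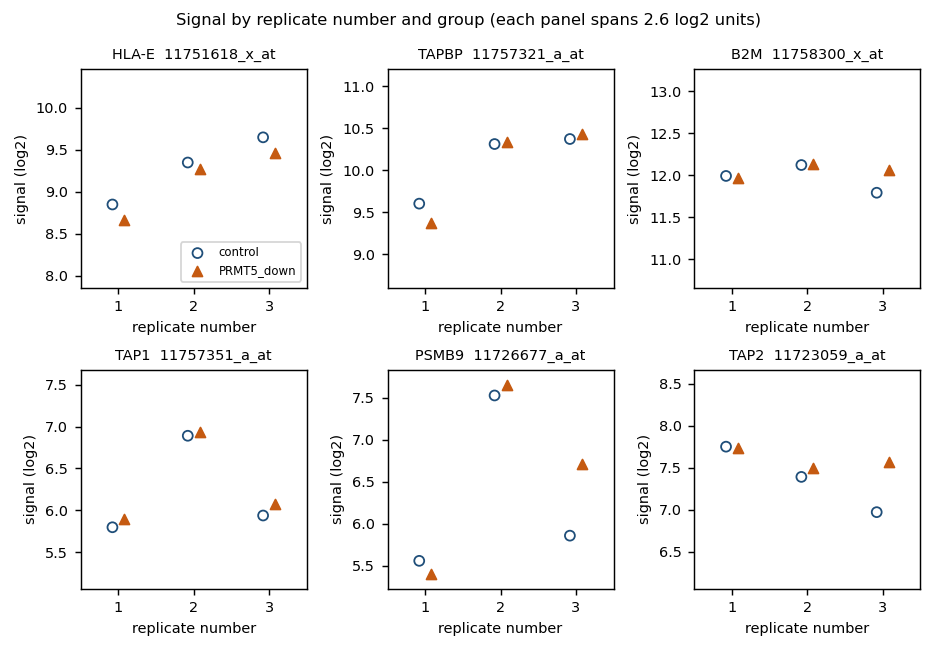
Log2 signal (y axis, 2.6 units in each panel) of the brightest probe set of HLA-E, TAPBP, B2M, TAP1, PSMB9 and TAP2 by replicate number (x axis), with control samples as circles and PRMT5_down samples as triangles, 1 array each. HLA-E and TAPBP are lowest in number 1 and TAP1 and PSMB9 highest in number 2 in both groups.

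Calls between PRMT5_down and control were likewise absent for the other genes of antigen presentation. Of 63 listed genes 59 were measured, 48 of them above background on all 6 arrays, and limma called 0 of the 59, with 0 at an unadjusted p under 0.05. Of the 59, 31 were higher and 28 lower. With the replicate block 4 had an unadjusted p under 0.05, where 8.56% of all probe sets had one, and 0 were called.

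The peptide supply genes, which cut and trim peptides, had 8 of 13 higher and a median of 0.04. The 4 with the smallest p were TPP2 at 0.21 (SE 0.12), NPEPPS at 0.19 (SE 0.12), BLMH at -0.14 (SE 0.14), all cytosolic peptidases, and the proteasome activator gene PSME3 at 0.10 (SE 0.14). Of the immunoproteasome subunits, PSMB8 was under background on every array, with signals from 3.48 to 4.52, while PSMB9 and PSMB10 were above it. PSMB10 read 8.52, 9.10 and 9.47 in controls and 8.27, 9.15 and 9.29 in PRMT5_down, lowest in replicate 1 of each group. Between numbers 2 and 1, 6 of the 13 were called higher and 0 lower, where 8.21% of all probe sets were called higher and 8.97% lower. The 6 included PSMB9, PSMB10 and PSMB8, the last under background. Between numbers 3 and 2, 0 of the 13 were called higher and 4 lower, against 7.76% and 10.0%.

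The general chaperones of class I assembly had 4 of 10 higher and a median of -0.03, with TAPBPL, a relative of tapasin, at -0.09 (SE 0.11), the ER chaperone gene HSPA5 at -0.09 (SE 0.12), PDIA3, the disulfide isomerase of the loading complex, at 0.07 (SE 0.17) and the glucosidase subunit gene PRKCSH at -0.08 (SE 0.19). All 10 were above background on all 6 arrays. The transcription factors and interferon signalling genes had 12 of 21 higher and a median of 0.03. Those with the smallest p were the interferon gamma receptor genes IFNGR2 at -0.15 (SE 0.09) and IFNGR1 at 0.10 (SE 0.15), and the interferon regulatory factor genes IRF2 at 0.23 (SE 0.23) and IRF1 at -0.11 (SE 0.19). All 21 were above background on all 6 arrays, so the interferon receptors and RFX and NF-Y subunits measured had signal where NLRC5 had none above background. Between numbers 2 and 1, 2 of the 21 were called higher and 9 lower, against 8.21% and 8.97% of all probe sets. Between numbers 3 and 1 they were 4 and 9, against 12.7% and 15.1%. Of all probe sets above background on all 6 arrays, 27.7% were called in either direction between 2 and 1 and 44.8% between 3 and 1.

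The class I-like molecules and stress ligands had 7 of 15 higher and a median of -0.01. The neonatal Fc receptor gene FCGRT stood at -0.15 (SE 0.12), the stress ligand gene RAET1G at -0.08 (SE 0.08), MR1, which presents vitamin B metabolites, at 0.23 (SE 0.23) and AZGP1 at -0.06 (SE 0.08). RAET1G and AZGP1 were under background on all arrays. Above background on all 6 arrays were 6 of the 15, and 7 were so on none.

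**Figure D4:**
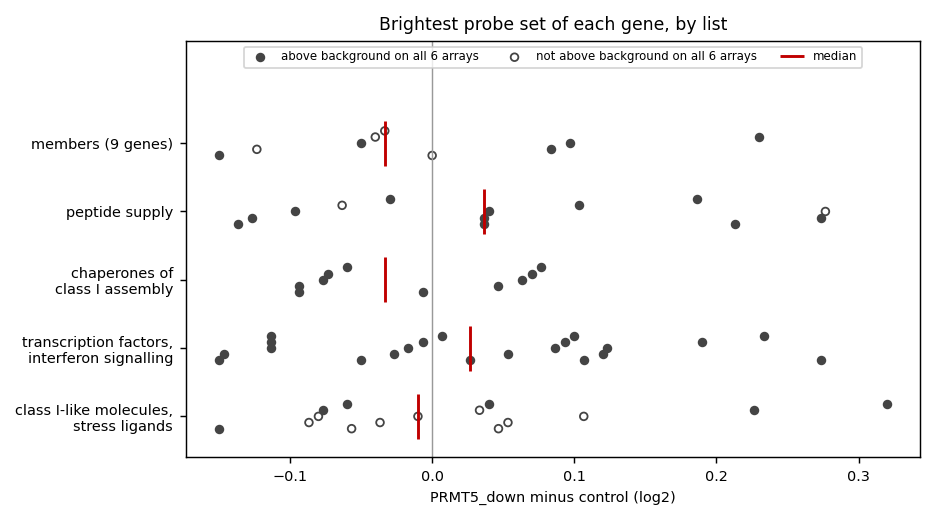
PRMT5_down minus control in log2 units (x axis) by the brightest probe set of each gene, for the 9 members and 4 lists of other antigen presentation genes (y axis). Filled dots are genes above background on all 6 arrays, open dots the others and red lines the list medians, which lie between -0.03 and 0.04.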

How the data were processed

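Arrays of 6 samples, 3 PRMT5_down and 3 control, were used. Each probe set has a log2 signal, which the authors computed by RMA, per the submitters' processing notes, without a stated software version. RMA gives every array the same distribution, which hides a shift common to most transcripts. No further normalization was applied.

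The 79 control probe sets were left out of 49372. One gene symbol was given for 44988, several for 1832 and none for 2473, and current symbols were looked up by gene identifier. The 49293 were fitted together with lmFit and eBayes (limma 3.58.1, R 4.3.3; Benjamini-Hochberg, threshold 0.05), without a filter, first with group alone and then with group and replicate number, which gave the contrasts between numbers. The fits were tested on simulated data. Deviations from the group means correlated at r = 0.81, 0.71 and 0.78 between arrays of numbers 1, 2 and 3. These values lay over the minimum of 0.1. Arrays of a number were treated as pairs in the fit with the replicate block and in the within-number differences. The fit with group alone, called as planned for the group difference, ignores the pairing. This pairing comes from the data and not from the labels. The members and lists were chosen with earlier results of these data known. Named were all members, PRMT5, the 4 genes of each list with the smallest p, at most 4 of the brightest and 4 of the dimmest markers per list and the 5 genes most like TAP1, whose brightest probe set varied most among members above background. IRF4, SDC1, PRDM1, FKBP11, PSMB8, PSMB9 and PSMB10 were named after their values were seen. Promoter sequences are from RefSeq (GRCh38.p14).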

Additional observations from a re-analysis of the deposited data

How the results depend on the processing

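None of the 9 members, by brightest probe set, and the 16 other named antigen presentation genes was called between PRMT5_down and control in any of the 19 settings that tested it, where the lowest limma adjusted p was 0.47. Leaving out the dimmest 50%, with or without the block, removed HLA-B, HLA-C, HLA-F, NLRC5, RAET1G and AZGP1, which left 19 of the 25 genes, and leaving out the dimmest 30% removed AZGP1. Over all probe sets limma called 0 as planned, 6 with a trended, robust fit and the replicate block, and 3 with that block after the dimmest 50% were left out; the cause was not tested. The replicate block changed no call of a member. PRMT5 passed only in the trended, robust fit with the block (limma adjusted p = 0.036), against 0.059 with the block and the dimmest 50% left out. There were 466 probe sets with an unadjusted p under 0.05 as planned and 4221 with the replicate block.

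Direction turned for these differences between PRMT5_down and control, none of them called. With 1 array left out, HLA-B ranged from -0.068 to 0.017, HLA-E from -0.37 to 0.082, B2M from -0.005 to 0.16, TAP1 from -0.22 to 0.44, TAPBP from -0.30 to 0.29 and NLRC5 from -0.098 to 0.032. Among the other genes PDIA3 ranged from -0.078 to 0.18, HSPA5 from -0.18 to 0.018, TAPBPL from -0.15 to 0.0083, PRKCSH from -0.21 to 0.092, IRF1 from -0.24 to 0.040 and IFNGR1 from -0.020 to 0.20. TAPBP was at 0.060 with the mean of its probe sets and at 0.040 with the replicate block, pair 1 left out. With the replicate block, pair 2 left out, HSPA5 was at 0.030, and with pair 3 left out B2M was at -0.010, NLRC5 at 0.025 and IFNGR1 at -0.095.

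Between replicate numbers, the counts of called probe sets were 8469, 13722 and 8759 for numbers 2 minus 1, 3 minus 1 and 3 minus 2. With the brightest probe set per gene, where fewer features are tested, they were 3285, 5318 and 3465, with 3, 3 and 1 members. With 1 array left out they were 0, 0 to 6797 and 0, with 0, 0 to 9 and 0 members called. Between 3 and 1 the count was 6797 when a replicate 2 array of either group was left out. It was 0 when an array of number 1 or 3 was left out. Direction turned, without a call, for HLA-F between 3 and 2 at -0.00083 with quantile normalization again. With 1 array left out it turned for B2M between 3 and 1, over -0.19 to 0.09, and NLRC5, over -0.043 to 0.15. Between 3 and 2 it turned for HLA-B, over -0.04 to 0.10, HLA-C, over -0.04 to 0.22, TAP2, over -0.45 to 0.11, and TAPBP, over -0.0025 to 0.16. The TAP2 call between 3 and 1, absent as planned, appeared with the lowest 50% left out, with trend and robust and with the brightest probe set per gene, at -0.47 in each. With the background at the 90th or 99th percentile, 27 or 17 of the 44 members were above it on all 6 arrays, against 24.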
